A study of Mus musculus with 7 samples.

Results

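The transcripts described here are those of the MyoD family of muscle transcription factors (Myod1, Myf5, Myog and Myf6), of the E proteins that pair with them (Tcf3, Tcf4 and Tcf12) and of related factors that hold them back (Msc, Twist1 and Twist2). These 10 genes were listed by symbol and all 10 were measured, out of 22180 genes on the arrays. Each was represented by the probe set (a group of array probes read as 1 value) with the highest mean. RNA came from C2C12, an established line of mouse skeletal myoblasts kept proliferating in medium with 15% fetal bovine serum. Each 100 mm dish received 0.2 µmol of an siRNA, which was a control siRNA (2 arrays), siG9a against the histone methyltransferase G9a (gene Ehmt2, 3 arrays) or siGLP against its relative GLP (gene Ehmt1, 2 arrays), and the study asked whether the enzymes have separate roles. All groups thus share the cell line, the serum-rich medium and a transfection, and no untransfected array was analysed here.

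The MyoD family belongs to the basic helix-loop-helix (bHLH) proteins, which bind DNA as dimers at a short motif called the E-box. A family member pairs with an E protein, and the dimer switches on muscle genes. Myod1 and Myf5 mark committed myoblasts, Myog (myogenin) drives their differentiation, and Myf6 (MRF4) acts mainly in later muscle. Twist1, Twist2 and Msc (musculin, also called MyoR) compete for E proteins or for the E-box. G9a and GLP place methyl groups on histone H3, and G9a is also known to methylate the MyoD protein, which a transcript array does not see.

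The Myog promoter is shown because Myog is itself a known target of MyoD, and the Myf5 promoter is shown as that of a family member without an E-box in the same window. Both are the 250 bases before the start of transcription, taken from RefSeq on build GRCm38.p6 and written 5′ to 3′ on the gene's own strand, with every E-box (CANNTG, which reads the same on both strands) in capitals. Myog lies on the plus strand, chr1:134289754-134290003, and Myf5 on the minus strand, chr10:107486135-107486384.

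Myog: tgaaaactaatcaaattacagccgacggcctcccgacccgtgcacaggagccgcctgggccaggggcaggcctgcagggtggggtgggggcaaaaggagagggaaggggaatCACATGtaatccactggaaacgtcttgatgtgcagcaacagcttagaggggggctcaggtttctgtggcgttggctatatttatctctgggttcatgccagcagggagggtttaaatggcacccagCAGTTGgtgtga
Myf5: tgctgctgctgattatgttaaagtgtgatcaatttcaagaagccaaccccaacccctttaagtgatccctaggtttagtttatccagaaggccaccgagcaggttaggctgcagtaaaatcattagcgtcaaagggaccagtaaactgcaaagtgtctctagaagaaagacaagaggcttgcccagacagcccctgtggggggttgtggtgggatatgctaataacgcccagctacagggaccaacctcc

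The Myog window held 2 E-boxes, CACATG at 138 to 133 bases before the start and CAGTTG at 12 to 7 bases before it, and the Myf5 window held none. An E-box occurred in 66.2% of all 32851 promoter windows of this length, so its presence in Myog is common, and its absence from Myf5 says only that these letters are not in this window. The narrower form CAGCTG occurred in 13% of all windows and, among the 8 windows found for 6 of the 10 genes, in 1 of the 3 windows of Tcf12. CAGGTG, counted on both strands, occurred in 17.2% of all windows and in none of the 8. For the MEF2 motif only the exact string YTAWWWWTAR was searched. In it Y is C or T, W is A or T, and R is A or G. This string occurred in 2.92% of all windows and in none of the 8. The Myog window holds ctatatttat, which differs from it only in the last base, so the count does not show that a MEF2 site is absent. Windows were not found for Myod1, Myf6 and Msc, and that of Tcf4 was not used here.

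Values are log2 signal, on which 1 unit is a doubling, and a difference is the mean of 1 group minus the mean of the other. The targeted transcripts were lowest on the arrays of their own siRNA. Ehmt2 read 7.56 and 7.46 in control, 6.31, 6.14 and 5.99 in siG9a, and 7.37 on both siGLP arrays (siG9a minus control -1.37, SE 0.10; limma, Benjamini-Hochberg adjusted p = 0.0308). Ehmt1 read 6.71 and 6.73 in control, 6.74, 6.60 and 6.53 in siG9a, and 5.73 and 6.13 in siGLP, and the difference of -0.79 (SE 0.14) in siGLP did not pass over all genes (adjusted p = 0.197). The reduction of Ehmt1 was thus smaller and less even between arrays.

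The cells carried the markers of myoblasts. Of 9 myoblast markers, 8 or 9 lay above the median of all probe sets on each array, with desmin (Des) at 11.02 in control, whereas 0 or 1 of 5 endothelial markers did. Of 11 markers of differentiated myotubes, 7 or 8 lay above it on each array, so this count alone does not tell myoblasts from myotubes. Markers of other cell types were also above the median, at 3 or 4 of 8 for fibroblasts, 2 or 3 of 6 for adipocytes, 3 or 4 of 7 for osteoblasts and cartilage, and 1 of 5 for leukocytes. In the leukocyte list the defining gene Ptprc stood at 2.80 in control, below the lower quartile of 3.32 to 3.36, and Cd68 at 7.14, above the upper quartile of 6.85 to 6.90. All 10 bHLH genes lay above the array median (4.54 to 4.59) on all 7 arrays, against 56.6% to 56.8% of all genes and 8 to 11 of 29 bHLH factors of other lineages. A position above the median is no proof of expression, since probe sets differ in brightness. Whether arrays of a group came from separate cultures is not in the labels, and each p-value therefore rests on a spread between samples that may be technical only.

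Myod1, the factor that can by itself turn other cell types into muscle, stood apart from the other 9 genes in siG9a. It read 7.46 and 7.80 in control, 7.04, 6.99 and 6.82 in siG9a, and 7.53 and 7.73 in siGLP. All 3 siG9a arrays lay below every control and every siGLP array, and the control and siGLP arrays overlapped. The siG9a mean was 62.4% of the control mean, a difference of -0.68 (SE 0.13, 95% interval -0.98 to -0.38), with rank 159 of 22180 by p, and it missed the threshold over all genes tested (adjusted p = 0.146, limma with Benjamini-Hochberg). The direct comparison gave siGLP 1.60-fold over siG9a, a difference of 0.68 (SE 0.13, 95% interval 0.38 to 0.97), which did not pass either (adjusted p = 0.10). Between siGLP and control the difference was -0.003 (SE 0.14), with a 95% interval from -0.33 to 0.32. That interval leaves room for a shift of up to about the size of the gap between the 2 control arrays (0.33).

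The size of the Myod1 difference varied with the arrays used. Its sign in siG9a could not turn by leaving out 1 array, since all siG9a arrays lay below all others. Over the 7 fits that each left out 1 array, siG9a minus control lay between -0.85 and -0.51 and siGLP minus siG9a between 0.57 and 0.78. The siGLP minus siG9a difference passed in 2 of the 16 alternative analyses, when the dimmer genes, those under the median level, were left out (limma adjusted p = 0.0375) and with a trended, robust variance model (adjusted p = 0.0454), and siG9a minus control passed in none (adjusted p from 0.0521 to 0.438). Within siG9a, array 3 had the lowest Myod1 and the lowest Ehmt2, and array 1 the highest of both. The untargeted Ehmt1, Myf5 and Myf6 had the same order of these arrays, and Msc had the reverse order. The order is thus not particular to Myod1, and a link with the depth of the knockdown was not tested.

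**Figure D1:**
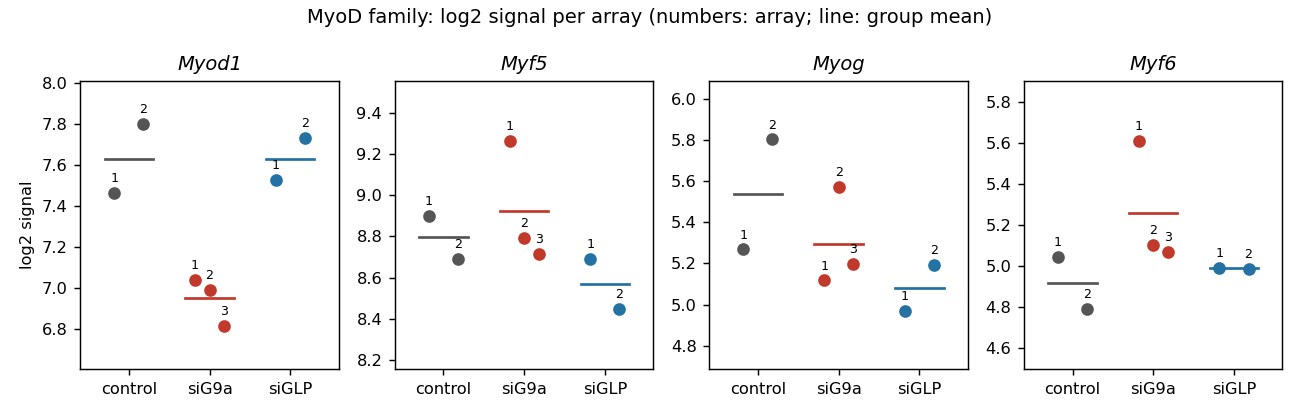
Log2 signal (vertical axis, same span in each panel) of the 4 MyoD family genes on each array, with points numbered by array and a line at each group mean. The 3 siG9a arrays of Myod1 (6.82 to 7.04) lie below all others, while the groups of Myf5, Myog and Myf6 differ by amounts close to the gaps between arrays of 1 group.

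Myf5, which shares the commitment step with Myod1, did not follow it. It read 8.90 and 8.69 in control, 9.26, 8.79 and 8.72 in siG9a, and 8.69 and 8.45 in siGLP. The high siG9a value came from array 1, and without that array the siG9a difference of 0.13 (SE 0.17) turned to -0.04. In siGLP the difference was -0.23 (SE 0.19), with both arrays below both control arrays by as little as 0.002 (8.691 against 8.693). Neither difference passed (limma adjusted p = 0.835 and 0.806), and the siGLP minus siG9a difference of -0.35 (SE 0.17) had an adjusted p of 0.475.

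Myf6, the neighbouring gene of Myf5 on the chromosome, had its highest value on the same array. It read 5.04 and 4.79 in control, 5.61, 5.10 and 5.07 in siG9a, and 4.99 on both siGLP arrays. The siG9a arrays lay above the control arrays without overlap, by 0.02 at the closest (5.07 against 5.04). The siG9a difference of 0.34 (SE 0.17) did not pass (limma adjusted p = 0.544), and it was 0.17 without siG9a 1. In siGLP the difference was 0.07 (SE 0.19; adjusted p = 0.954).

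Myog, the differentiation factor, was lowest in siGLP and was the least even of the family within the control. It read 5.27 and 5.80 in control, 5.12, 5.57 and 5.20 in siG9a, and 4.97 and 5.19 in siGLP. The gap of 0.54 between the control arrays exceeded both differences from control. In siGLP the difference was -0.45 (SE 0.21, 95% interval -0.96 to 0.05; limma adjusted p = 0.630), with both arrays below both control arrays, and it ranged from -0.72 to -0.19 when 1 array was left out. In siG9a it was -0.24 (SE 0.19; adjusted p = 0.708) and turned to 0.03 without control 2. The siGLP and siG9a arrays overlapped (difference -0.21, SE 0.19; adjusted p = 0.706).

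The E proteins were the steadiest of the 10 genes. Tcf3, which encodes E12 and E47, read 8.90 and 8.85 in control, 8.81, 9.05 and 8.89 in siG9a, and 8.90 and 8.91 in siGLP. The Tcf4 gene encodes E2-2 and is distinct from the Wnt pathway factor that shares its name. It read 8.60 on both control arrays, 8.61, 8.71 and 8.59 in siG9a, and 8.60 and 8.66 in siGLP. For both genes every group overlapped the others.

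Tcf12, which encodes HEB, read 8.83 and 8.79 in control, 8.75 on all 3 siG9a arrays, and 8.65 and 8.75 in siGLP. Its arrays lay below the control arrays without overlap in both knockdowns, by differences of -0.06 (SE 0.062) and -0.11 (SE 0.068) that did not pass (limma adjusted p = 0.783 and 0.742). The same Tcf12 value recurred on 4 arrays and the same Tcf4 value on 3. A value shared by 3 or more arrays occurred in 4746 of the 22180 genes of the deposited table, so the SD of 0 in siG9a understates the spread. Over the 3 E proteins the 95% intervals of siG9a minus control ran from -0.20 at the lowest (Tcf12) to 0.24 at the highest (Tcf3), and those of siGLP minus control from -0.27 (Tcf12) to 0.25 (Tcf3). In both comparisons these were the 3 narrowest intervals of the 10 genes.

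Of the factors that oppose MyoD, Msc varied most between arrays of 1 group, with a residual SD above that of 99.2% of all genes. It read 6.57 and 6.96 in control, 6.72, 7.02 and 7.04 in siG9a, and 5.93 and 6.88 in siGLP. The low value was siGLP 1, and all groups overlapped. The siGLP difference of -0.36 (SE 0.30; limma adjusted p = 0.801) turned to 0.11 without siGLP 1, and that of siGLP minus siG9a (-0.52, SE 0.27; adjusted p = 0.502) became -0.05. A dimmer probe set of Msc read 5.28 and 5.52 in control, 5.33, 5.78 and 5.52 in siG9a, and 5.26 and 5.45 in siGLP. There siGLP 1 was again the lowest array, but by 0.02, and siGLP minus control was -0.04 (SE 0.16). The 2 probe sets of Msc thus disagree on the size of the gap between the siGLP arrays.

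Twist1 and Twist2 showed no separation of the groups. Twist1 read 5.21 and 4.93 in control, 5.02, 5.17 and 5.02 in siG9a, and 5.02 and 5.0 in siGLP, with differences from control of -0.004 (SE 0.097) and -0.06 (SE 0.11). The sign of the first turned to positive, by 0.02 at most, under both renormalizations and the replicate block. Twist2 read 5.38 and 5.56 in control, 5.16, 5.67 and 5.35 in siG9a, and 5.42 and 5.44 in siGLP, with differences of -0.07 (SE 0.15) and -0.04 (SE 0.16). None of these passed (limma adjusted p of at least 0.891).

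**Figure D2:**
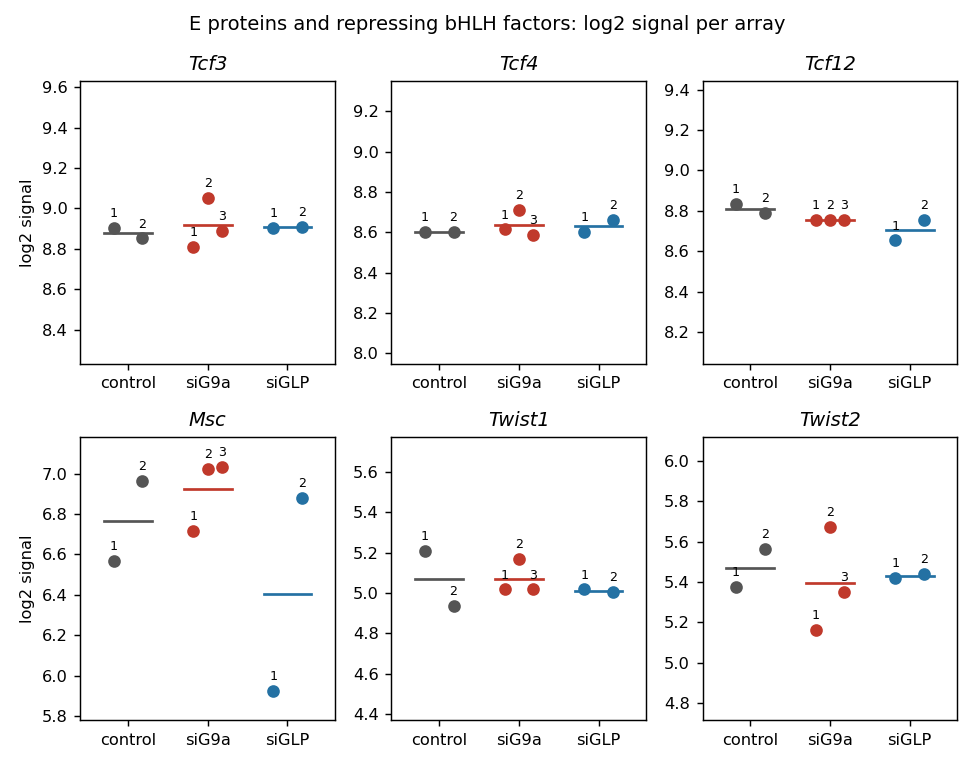
Log2 signal (vertical axis, same span in each panel) of the E proteins (Tcf3, Tcf4, Tcf12) and of the opposing bHLH factors (Msc, Twist1, Twist2) on each array, numbered by array, with a line at each group mean. The E proteins span at most 0.24 over the 7 arrays, whereas Msc spans 1.11 because of siGLP 1.

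None of the 10 genes passed in any comparison (limma, Benjamini-Hochberg adjusted p under 0.05), where 0.0271% of all genes passed in siG9a minus control, 0.00451% in siGLP minus control and 0.234% in siGLP minus siG9a. At an unadjusted p under 0.05 there was 1 of 10 in siG9a minus control (Myod1), against 10.5% of all genes. There was 0 of 10 in siGLP minus control, against 8.63%, and 1 of 10 in siGLP minus siG9a (Myod1 again), against 12.4%. Groups did not overlap for 3 of 10 in siG9a minus control (Myod1, Myf6 and Tcf12), against 25.7% of all genes, and for 3 of 10 in siGLP minus control (Myf5, Myog and Tcf12), against 34.2%. In siGLP minus siG9a, Myod1 lay higher and Myf5 and Myf6 lower without overlap, 3 of 10 against 26.3%. These shares are close to those of all genes and are not a result about the 10. Their median difference was 0.02 in siG9a minus control, -0.05 in siGLP minus control and -0.05 in siGLP minus siG9a, where the medians of all genes were 0.005, 0.001 and -0.004. Both comparisons with control use the same 2 control arrays.

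**Figure D3:**
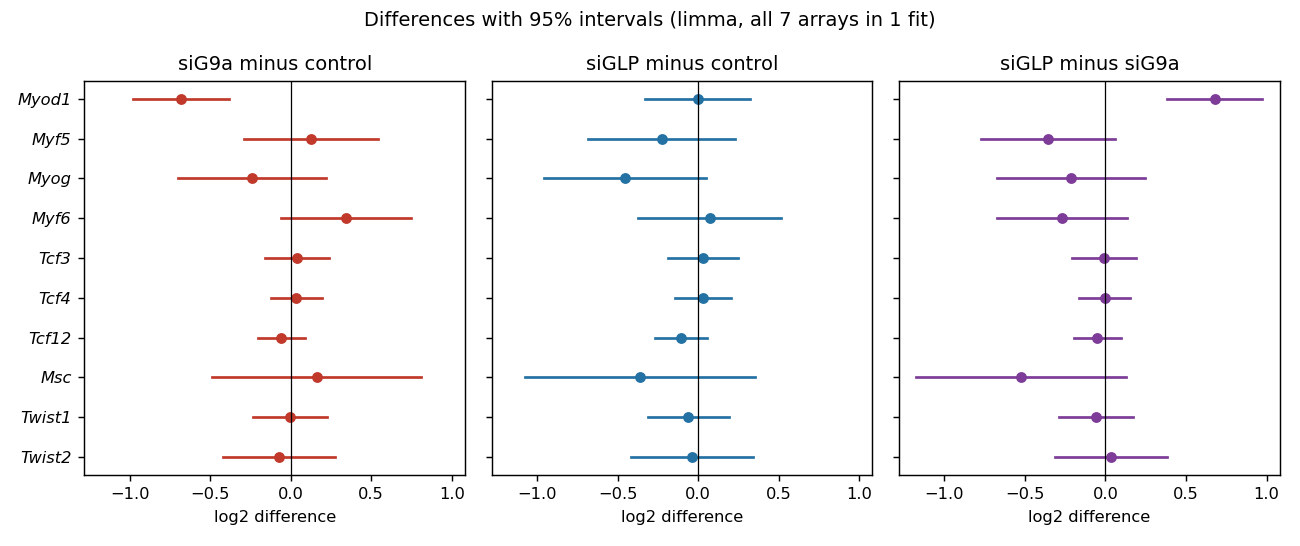
Log2 difference (horizontal axis) of each of the 10 genes in the 3 comparisons, with points at the estimate and lines over the 95% interval from limma. The interval of Myod1 leaves out 0 in siG9a minus control (-0.98 to -0.38) and in siGLP minus siG9a (0.38 to 0.97), and every other interval includes 0.

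Genes around the family were then read from lists. Of 36 measured targets of the MyoD family, 0 passed in any comparison. In siG9a minus control 1 was higher and 5 were lower at an unadjusted p under 0.05, where 5.95% and 4.57% of all genes were, and the median was 0.01. The counts were 2 and 7 in siGLP minus control (4.51% and 4.13% of all genes; median -0.03), and 1 and 5 in siGLP minus siG9a (5.87% and 6.57% of all genes; median -0.07). The medians of all genes are those given above.

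The 4 targets with the smallest p against control were Mymk, Chrng, Cacng1 and Cdkn1a, and the first 3 were lowest in siGLP, where Myod1 stood at the control level. Cacng1, a subunit of the muscle calcium channel, read 8.31 and 8.16 in control, 8.36, 8.01 and 8.33 in siG9a, and 7.27 and 6.84 in siGLP. It was 2.28-fold lower in siGLP than in control (difference -1.19, SE 0.17; limma adjusted p = 0.168) and differed by -0.005 (SE 0.16) in siG9a. Its siGLP minus siG9a difference of -1.18 (SE 0.16) missed the threshold (adjusted p = 0.0531) and passed in 5 of the 16 alternatives (adjusted p = 0.0169 to 0.0452).

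Chrng, the fetal subunit of the acetylcholine receptor, read 6.51 and 6.47 in control, 6.51, 6.38 and 6.20 in siG9a, and 5.53 and 5.75 in siGLP. The siGLP arrays lay below all others (difference from control -0.85, SE 0.12; limma adjusted p = 0.164). Mymk, which encodes the fusion protein myomaker, read 6.34 on both control arrays, 6.05, 6.11 and 5.98 in siG9a, and 5.61 and 5.64 in siGLP. The 3 groups of Mymk did not overlap one another, at differences from control of -0.29 (SE 0.064; adjusted p = 0.184) in siG9a and -0.71 (SE 0.07; adjusted p = 0.133) in siGLP. The latter passed when genes under the median level were left out (adjusted p = 0.036) and with the trended variance model (adjusted p = 0.0433). The siGLP minus siG9a differences of Chrng (-0.72, SE 0.11; limma adjusted p = 0.0686) and Mymk (-0.42, SE 0.064; adjusted p = 0.069) each passed in 3 of the 16 alternatives.

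Cdkn1a, which encodes the cell cycle inhibitor p21, was the one of the 4 that lay above control in both knockdowns. It read 11.34 and 11.26 in control, 11.64, 11.58 and 11.64 in siG9a, and 11.60 and 11.48 in siGLP (differences 0.33, SE 0.069, and 0.24, SE 0.075; limma adjusted p = 0.178 and 0.434). The siG9a difference passed with the trended variance model (adjusted p = 0.0462).

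**Figure D4:**
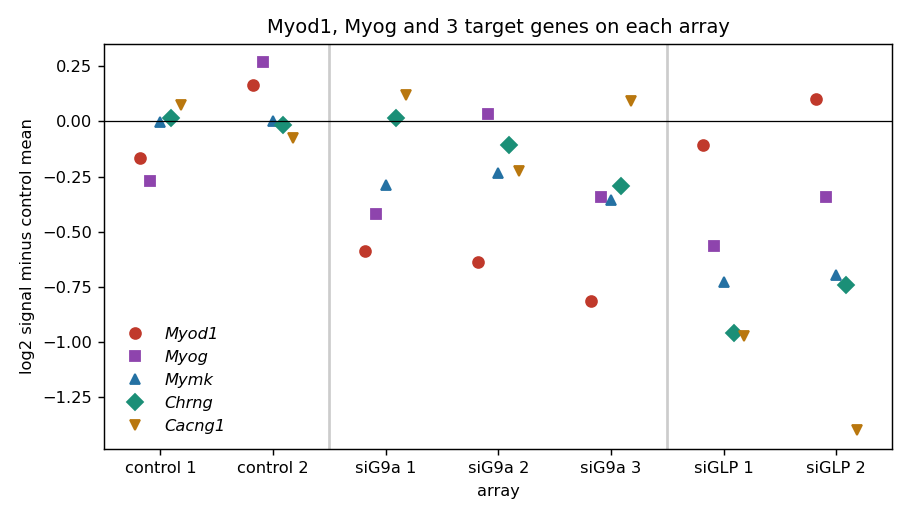
Log2 signal minus the gene's own control mean (vertical axis) for Myod1, Myog and the targets Mymk, Chrng and Cacng1 on each of the 7 arrays (horizontal axis), 1 point per gene. Myod1 is lowest on the 3 siG9a arrays, and Mymk, Chrng and Cacng1 are lowest on the 2 siGLP arrays. These targets were picked by their small p against control, and Cdkn1a, picked likewise but higher in both knockdowns, is not shown. They do not stand for the list. Of 36 targets, 18 lay above and 18 below control in siG9a, and 17 and 19 in siGLP. Tnnt1 (-0.88), Actc1 (-0.61) and Cdh15 (-0.51), not shown, were lower in siG9a, as Myod1 was.

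Of 15 measured inhibitors of MyoD activity, 0 passed in any comparison, with medians of -0.05, -0.07 and -0.04. At an unadjusted p under 0.05, 1 was higher and 2 lower in siG9a minus control (5.95% and 4.57% of all genes), 1 and 3 in siGLP minus control (4.51% and 4.13%), and 2 and 3 in siGLP minus siG9a (5.87% and 6.57%). Id2, one of the Id proteins that bind E proteins and keep them from MyoD, read 7.52 and 7.96 in control, 8.29, 7.75 and 8.04 in siG9a, and 8.56 and 8.53 in siGLP. It was 1.75-fold higher in siGLP than in control, without overlap (difference 0.81, SE 0.20; limma adjusted p = 0.307). The other Id genes did not follow it. In siGLP, Id1 (0.03), Id3 (-0.01) and Id4 (-0.09) overlapped control. In siG9a they stood at -0.34, -0.45 and -0.16, with Id3 alone below control without overlap. The Notch target Hey1 differed by -0.34 (SE 0.14) in siG9a and -0.55 (SE 0.15) in siGLP, and its relative Heyl by -0.01 and -0.28 (adjusted p of at least 0.381). Bhlhe40, a bHLH repressor, stood at 0.30 in siG9a and -0.12 in siGLP, and siGLP minus siG9a was -0.42 (SE 0.098; adjusted p = 0.158).

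Upstream of the family, 0 of 15 measured regulators passed in any comparison. At an unadjusted p under 0.05, 0 were higher and 2 lower in siG9a minus control (5.95% and 4.57% of all genes), 1 and 1 in siGLP minus control (4.51% and 4.13%), and 1 and 0 in siGLP minus siG9a (5.87% and 6.57%). Pax7, the satellite cell factor that acts on Myf5 and Myod1, stood at -0.36 (SE 0.084) in siG9a and -0.19 (SE 0.092) in siGLP (limma adjusted p = 0.213 and 0.650). Of the Eya transcriptional coactivators, Eya4 stood at -0.24 and -0.50 and Eya1 at 0.10 and 0.23. Meox1, a factor of the somite, differed by -0.32 in siG9a and 0.04 in siGLP, from a control level (4.11) below the array median.

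Of 15 measured cofactors, 0 passed in any comparison. At an unadjusted p under 0.05, 1 was higher and 1 lower in siG9a minus control (5.95% and 4.57% of all genes), 0 and 2 in siGLP minus control (4.51% and 4.13%), and 1 and 2 in siGLP minus siG9a (5.87% and 6.57%). Kat2b, the acetyltransferase PCAF that acetylates MyoD, stood at 0.48 (SE 0.13) in siG9a and 0.24 (SE 0.14) in siGLP, and the arginine methyltransferase gene Carm1 at -0.25 and -0.08. Mef2a, a partner of the MyoD family on muscle promoters, stood at 0.07 in siG9a and -0.29 (SE 0.071) in siGLP. Its siGLP minus siG9a difference of -0.36 (SE 0.065; limma adjusted p = 0.0969) passed in 2 of the 16 alternatives (adjusted p = 0.0271 and 0.0312). Ccnd3, the cyclin D3 gene, stood at 0.05 and -0.28.

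The bHLH factors of other lineages served as relatives with known roles in other tissues. Of 29 measured, 0 passed in any comparison, with medians of -0.05, 0.001 and 0.08. At an unadjusted p under 0.05, 2 were higher and 2 lower in siG9a minus control (5.95% and 4.57% of all genes), 3 and 0 in siGLP minus control (4.51% and 4.13%), and 2 and 0 in siGLP minus siG9a (5.87% and 6.57%). The oocyte factor gene Figla (0.34 in siG9a), Tcf23 (0.34 in siGLP), Bhlhe23 (-0.26 in siG9a) and the oligodendrocyte factor gene Olig1 (0.22 in siGLP) had the smallest p (limma adjusted p from 0.242 to 0.513). The control levels of Figla (3.70), Tcf23 (4.0) and Olig1 (4.40) lay below the array median.

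**Figure D5:**
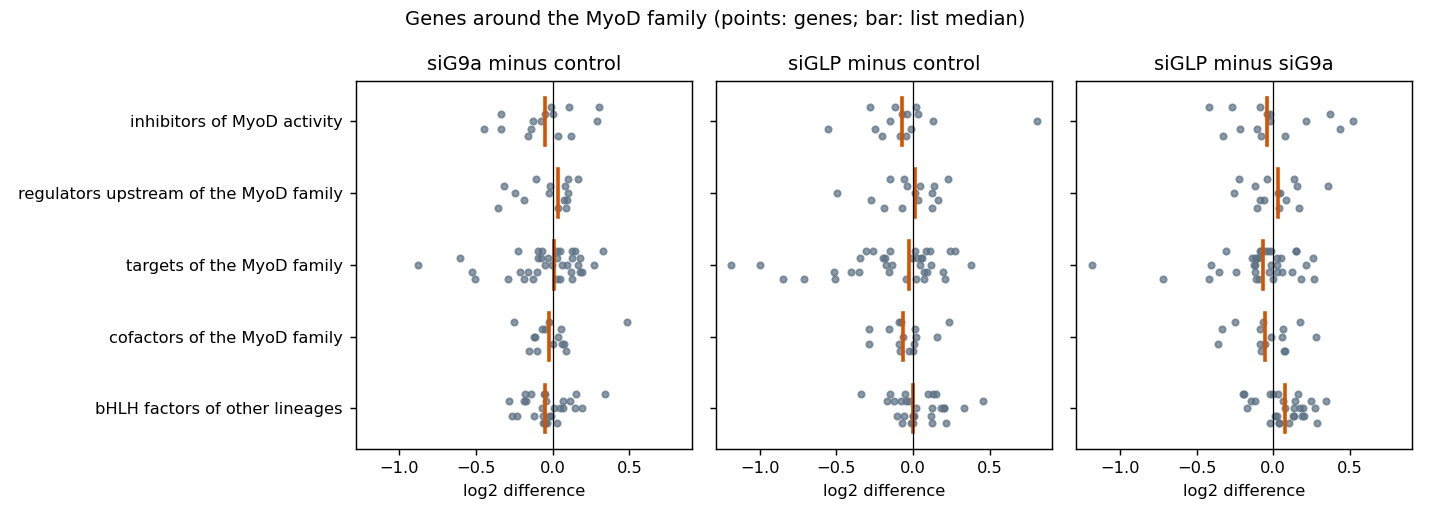
Log2 differences (horizontal axis) of the genes of the 5 lists in the 3 comparisons, 1 point per gene and a bar at each list's median. The medians lie between -0.07 and 0.08, and the lowest point is Cacng1 in siGLP minus control (-1.19).

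The summed signal of marker lists of several cell types differed between groups. For the 9 myoblast markers it was 5561 to 5942 in control, 5309 to 5433 in siG9a and 5232 to 5361 in siGLP. For 11 markers of differentiated myotubes the groups overlapped, at 422 to 456, 401 to 486 and 377 to 433 in the same order. For 8 fibroblast markers it was 1023 to 1089, 874 to 955 and 749 to 840 in the same order. The 6 adipocyte markers gave 325 to 334, 367 to 410 and 367 to 431, and the 5 leukocyte markers 178 to 199, 251 to 275 and 236 to 276. The 7 osteoblast and cartilage markers gave 631 to 689, 543 to 622 and 622 to 630, with both knockdowns below control. The 5 endothelial markers overlapped, at 75.9 to 76.1, 73.4 to 79.8 and 71.7 to 82.4. How often such sums separate was not counted. Among single genes, 25.7% in siG9a and 34.2% in siGLP did not overlap control. Most of the myoblast sum came from Des (11.02 in control) and Chrna1 (10.61). In siG9a and siGLP Des stood at -0.10 and -0.20 and Chrna1 at 0.03 and 0.05. Of the 9 myoblast markers, 8 lay below control in siG9a and 7 in siGLP (median -0.19 in both). At an unadjusted p under 0.05 (limma), 0 were higher and 4 lower in siG9a (5.95% and 4.57% of all genes). In siGLP 0 and 2 were (4.51% and 4.13%), and none passed. Most of the fibroblast sum came from the collagen gene Col3a1 (9.72 in control), which stood at -0.33 in siG9a and -0.46 in siGLP. Of the 8 fibroblast markers, 5 lay above control in siG9a (median 0.07, with Dpt at 0.50) and 3 in siGLP (median -0.14). Most of the adipocyte sum came from Pparg, the nuclear receptor gene of fat cell differentiation, at 7.95 in control, 8.23 in siG9a and 8.13 in siGLP. In the leukocyte list Cd68 (7.14 in control) differed by 0.62 and 0.54, while Ptprc stood at 2.80, 2.79 and 2.89. In the adipocyte list Adipoq stood at 3.02, 3.11 and 3.12 and Fabp4 at 3.33, 3.76 and 5.36. The Fabp4 difference of 2.03 in siGLP (SE 0.57) did not pass (limma adjusted p = 0.386). The siGLP arrays were uneven, with a mean log2 signal over the 6 adipocyte markers of 5.09 on siGLP 1 and 4.66 on siGLP 2. The part of these shifts in the differences of Myod1, Mymk, Chrng and Cacng1 was not tested, and in bulk RNA fewer cells of a type cannot be told apart from less RNA per cell.

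Genes whose values over the 7 arrays were most like those of Myod1 were found by the root mean square difference between 2 genes, each centred on its own mean. The 5 nearest were Fars2, a mitochondrial tRNA synthetase gene (0.067), the actin-binding transgelin gene Tagln (0.077), Spred2, an inhibitor of Ras signalling (0.089), Tmtc3 (0.10), and the mRNA decapping gene Dcp1a (0.10). All 5 were lower in siG9a than in control by 0.57 to 0.68 and within 0.12 of control in siGLP, and none passed in siG9a (limma adjusted p from 0.0585 to 0.150). The 5 nearest to Myog were the adhesion receptor gene Adgrg6 (0.097), the heparan sulfatase gene Sulf2 (0.11), the zinc finger gene Bnc2 (0.11), the Slit receptor gene Robo1 (0.12) and the tRNA thiolation gene Ctu1 (0.12). These 5 shared with Myog a higher control 2 than control 1. For both groups of 5 the shared pattern follows from how the genes were chosen, on these same 7 arrays. It is therefore no separate result. No other MyoD family gene, E protein or opposing factor was among either group of 5.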

How the data were processed

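Expression was measured with 1 single-colour whole-transcript Affymetrix array per sample, from 100 ng of total RNA per the labels' protocols. The values are log2 signal per probe set as deposited by the authors. RMA and Partek are named, with no version, in the submitters' processing notes. RMA normalizes between arrays, so differences are relative to the bulk of transcripts, and dim probe sets are compressed. The log2 scale was taken from the range of the values. Scanner files were not used here, and no source used here gives scan dates. The number of arrays limits the precision.

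Of 33649 probe sets, 23521 had 1 gene symbol in the platform annotation, 1814 several and 8314 none. Symbols were updated by gene number through RefSeq genes of GRCm38.p6 (23328 matched). The probe set with the highest mean stood for a gene, which left 22180 genes. Msc had 2 probe sets and each of the other 9 genes had 1.

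The test was limma 3.58.1 under R 4.3.3 (lmFit and eBayes with 1 mean per group over all 7 arrays, 4 residual degrees of freedom, 6.89 after moderation), two-sided, with Benjamini-Hochberg adjustment over all 22180 genes and a threshold of 0.05. Titles number the arrays but state no pairing, so no block was used in the main fit. The test was checked on simulated data: in siG9a minus control over 22180 genes, the share recovered was 40.3% at a 1.5-fold change, 85.1% at 2-fold and 100% at 3-fold. The simulation held 200 changed genes and gave 8 false calls. Its noise was independent between arrays and had no tied values, unlike the deposited table, so recovery in the real data may be lower.

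Named genes were the 10 members, the targeted genes, from each list the 4 with the smallest p against control, and the 5 genes most like Myod1 and Myog among named genes above the median level. The marker genes and other genes named were picked after their values were seen. The members and lists were chosen with earlier results of these data known. Of the listed genes, those without a probe set of 1 symbol were not analysed here. The alternatives were 9 other analyses, 7 fits without 1 array each, and the dimmer Msc probe set. They are not all separate. For siG9a minus control, leaving out a siGLP array gave the same result as using only the 2 groups compared. For siGLP minus siG9a, leaving out a control array did so.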

Additional observations from a re-analysis of the deposited data

Results flagged for a closer look

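Of 110 measured genes in the lists around the family, 5 (4.55%) had all siG9a arrays on one side of the control arrays and all siGLP arrays on the other, as did 550 of 22180 genes in all (2.48%). Nothing particular to the lists is read from these shares. Bhlhe40 read 8.27 and 8.42 in control, 8.59, 8.54 and 8.82 in siG9a, and 8.23 and 8.22 in siGLP. Its siGLP minus siG9a difference of -0.42 (SE 0.098) did not pass (limma adjusted p = 0.158). Mef2a read 9.25 and 9.20 in control, 9.32, 9.29 and 9.28 in siG9a, and 8.88 and 9.0 in siGLP. Its siGLP minus siG9a difference of -0.36 (SE 0.065) did not pass either (adjusted p = 0.0969). The other three fell outside the rule for named genes and were picked after their values were seen. Rb1, the retinoblastoma gene, stood at 0.27 in siG9a and -0.14 in siGLP. Its value in siGLP less that in siG9a was -0.41 (SE 0.12; adjusted p from limma 0.245). The integrin gene Itga7 stood at -0.19 and 0.07, with a difference of 0.26 (SE 0.062; adjusted p = 0.161), and the lysine methyltransferase gene Setd7 at -0.12 and 0.16, with a difference of 0.28 (SE 0.085; adjusted p = 0.261). No gene of the MyoD family, E protein, Msc or Twist gene met this criterion, and no group had enough arrays to test for single outlying ones.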

How the results depend on the processing

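In 16 alternative analyses (7 of them without 1 array) the count of the 10 genes that passed stayed at 0 in siG9a minus control and in siGLP minus control, and in siGLP minus siG9a it was 1 (Myod1) above the median level and 1 with a trended, robust variance model. Of 30 differences, 13 kept their sign in all 16 analyses, 2 reached 0 without changing sign (Tcf12 in siGLP minus siG9a and Tcf4 in siGLP minus control, each with 1 array left out) and 15 changed sign in at least 1. Where the arrays of the compared groups did not overlap, leaving out 1 array could not change the sign. The count over all genes, 6 in siG9a minus control, was 30 above the 30th percentile of level, 148 above the median level, 100 with the trended variance, 10 with array weights, 0 with only the 2 groups compared, 0 with the replicate block and 0 to 0 without 1 array. In siGLP minus control, 1 became 21 above the median level, 23 with the trended variance, 0 with only the 2 groups, 0 with the replicate block and 0 to 1 without 1 array. In siGLP minus siG9a, 52 became 171 above the 30th percentile, 350 above the median level, 304 with the trended variance, 0 with only the 2 groups, 0 with the replicate block and 0 to 0 without 1 array. A filter tests fewer genes, and the other causes were not tested.

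Signs turned as follows. Under quantile normalization Myod1 in siGLP minus control was 0.0038 and Twist1 in siG9a minus control 0.0072. Under cyclic loess these were 0.00099 and 0.00026, and in siGLP minus siG9a Tcf3 was 0.0050 and Tcf4 0.011. With the replicate block Twist1 was 0.021 in siG9a minus control. Same-numbered arrays of different groups had correlations of their deviations from the group means between 0.0047 and 0.17 (over 0.1 in 5 of 6 pairs). For arrays with different numbers these ran from -0.17 to 0.15 (over 0.1 in 1 of 10 pairs). Within control, and within siGLP, the deviations of the arrays are equal and opposite by construction. Many of these correlations are therefore the same value repeated or its negative. The counts of pairs are thus not separate observations, and no pairing is read from them. An effect shared by same-numbered arrays was not tested. The titles state no pairing, so the main fit had no block. With the replicate block none of the 10 genes passed.

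Without 1 array, siG9a minus control ranged from -0.037 to 0.36 for Msc, -0.042 to 0.23 for Myf5, -0.51 to 0.027 for Myog, -0.030 to 0.092 for Tcf3, -0.0032 to 0.061 for Tcf4, -0.14 to 0.13 for Twist1 and -0.21 to 0.043 for Twist2. In siGLP minus control it ranged from -0.84 to 0.11 for Msc, -0.055 to 0.20 for Myf6, -0.17 to 0.16 for Myod1, -0.20 to 0.076 for Twist1 and -0.13 to 0.056 for Twist2. In siGLP minus siG9a it ranged from -0.063 to 0.058 for Tcf3, -0.034 to 0.032 for Tcf4 and -0.081 to 0.18 for Twist2. With the dimmer Msc probe set, chosen after seeing the data, Msc kept its sign in all 3 comparisons.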

Other observations

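A pair of muscle genes outside the 10, Cdh15 and Tnnt1, came from the list of MyoD family targets and were chosen after their values were seen. Both lay below control on every array of both knockdowns. In that list Mymk, Actc1 and Des did so too, while Cdkn1a, Tnni1, Tnnc1, Casq2, Klhl41 and Dmpk lay above control on every array of both. Both comparisons share the control arrays. Taken singly, 25.7% of all genes in siG9a and 34.2% in siGLP did not overlap control, in either direction. The share of all genes with either pattern in both knockdowns was not counted, so whether these targets are unusual cannot be judged. No shift of the list is read from them or from the pair. Cdh15, which encodes M-cadherin of myoblasts, read 7.68 and 7.75 in control, 7.21, 7.36 and 7.06 in siG9a, and 7.09 and 7.32 in siGLP (differences -0.51, SE 0.11, and -0.51, SE 0.12; limma adjusted p = 0.181 and 0.292). Tnnt1, the slow troponin T gene, read 6.43 and 6.77 in control, 5.77, 5.83 and 5.58 in siG9a, and 5.28 and 5.93 in siGLP (differences -0.88, SE 0.20, and -1.0, SE 0.22; adjusted p = 0.205 and 0.262). Neither passed over all genes, and the siGLP and siG9a arrays of both overlapped, unlike those of Myod1.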
